A study of Mus musculus with 2 samples.

Results

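Car9, Vegfa, Ndrg1, Adm, Bnip3, Ankrd37, Egln3 and Hilpda are 8 genes that cells switch on when oxygen runs short. They were taken by symbol from the feature list of 2 spatial transcriptomics libraries, which holds 19465 features, and all 8 were counted in both libraries. One library is labelled KPC-shZEB1 and the other KPC-shV, and each is a section of an orthotopic pancreatic tumor that grew from KPC cells injected into the mouse pancreas. In the Visium CytAssist assay, gene-specific probes bind the RNA of a tissue section and are then caught on barcoded spots. A spot can cover several cells, so different types can share it.

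KPC is a mouse pancreatic cancer line developed from genetically engineered mice in which Pdx-1 drives Cre in the pancreas. KPC-shV cells carry a control vector and KPC-shZEB1 cells a knockdown of Zeb1, so host cells of both sections keep Zeb1. The methods give 2 tumors per group, mice of 4 to 6 weeks and, for the same tissues, gemcitabine in both groups, whereas the labels name neither the drug nor the tumor that a library covers. The strain used for these sections was not given in the sources used here.

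Oxygen is read in cells by prolyl hydroxylases, which mark the alpha subunit of the hypoxia-inducible factor (HIF) for destruction by the Vhl ubiquitin ligase. When oxygen falls, the alpha subunit escapes, pairs with Arnt and binds short DNA elements with the core ACGTG or GCGTG next to its target genes. Targets bring glucose transport and glycolysis, blood vessel growth, acid export and mitochondrial turnover. Pancreatic tumors are known for sparse vessels and a dense stroma.

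The depth and the tissue of the sections differed. The section labelled KPC-shZEB1 held 140493626 unique molecular identifiers (UMIs) in 2220 spots, with a median of 59957.5 per spot, and the section labelled KPC-shV held 172059528 in 3552 spots, with a median of 52544.5. Spots with more than 20% of their UMIs in acinar genes (digestive enzymes) are called acinar-rich. They were 34.2% and 7.07% of the spots and were left out unless stated, leaving 1461 and 3301 spots. Among these, 3.63% and 19.1% held fewer than 20000 UMIs. The libraries shared 1718 barcodes, which are positions of the same slide design and not cells. The tumor epithelium list (Epcam, Krt7, Krt8, Krt19, Cldn4, Sox9 and Lcn2) summed to 5794 and 6613 UMIs per 1000000 (CPM) in the remaining spots, and 8 genes not expected in pancreas or tumor summed to 7.72 and 8.37 CPM.

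Zeb1, the targeted gene, was at 15.6 CPM for the section labelled KPC-shZEB1 and 12.7 CPM in the section labelled KPC-shV outside acinar-rich spots (log2 ratio 0.30, 95% interval 0.20 to 0.40). Over all spots it was at 10.8 and 12.4 CPM, a log2 ratio of -0.20 (-0.30 to -0.11). The first ratio goes against the label, so the libraries are called by their labels throughout. All log2 ratios divide KPC-shZEB1 by KPC-shV unless stated. As each group is 1 library, nothing was tested. The 95% intervals are exact (Poisson for levels, conditional binomial for ratios and binomial for shares). Those of levels and ratios hold counting error alone. Those of shares take spots as independent draws, although the spots of a library share a section.

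All 8 genes were lower in the section labelled KPC-shZEB1. Summed, they were at 433.3 CPM there and 1097 CPM in the section labelled KPC-shV (log2 ratio -1.34, interval -1.36 to -1.32). The log2 ratio of the single genes ran from -2.25 to -0.81 with a median of -1.51, beside a median of -0.02 over the 14383 genes that had 100 or more UMIs in each library. All 8 genes were below 0, as were 51.7% of those 14383. A log2 ratio at or under -1 was found for 5 of the 8 genes and for 2.02% of all genes tested, and one at or over 1 for 0 of the 8 and 4.81% of all. Fewer cells of a type and less RNA per cell cannot be told apart in such sums. Levels are compared between libraries and not between genes, since the number and the efficiency of the probes differ from gene to gene.

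Egln3, a prolyl hydroxylase that tags HIF alpha subunits and is itself switched on by HIF, lies on chromosome 12 (54178981 to 54203860, minus strand of GRCm38). In KPC-shV, as labelled, it was at 406.6 CPM (403.5 to 409.7), and in the section labelled KPC-shZEB1 at 213.0 CPM (209.9 to 216.1). The log2 ratio was -0.93 (-0.96 to -0.91).

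The pair of secreted vessel factors differed more. Vegfa, the growth factor that draws and maintains endothelial cells (chromosome 17, 46016993 to 46032369, minus strand), was at 39.1 CPM for the section labelled KPC-shZEB1 and 165.6 CPM in the section labelled KPC-shV (log2 ratio -2.08, interval -2.13 to -2.03). Adm, the precursor of the vessel-widening peptide adrenomedullin (chromosome 7, 110627661 to 110629820, plus strand), was at 7.59 and 23.7 CPM, a log2 ratio of -1.64 (-1.76 to -1.52). Adm had the fewest UMIs of the 8 genes, with 649 and 3917.

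Car9, a carbonic anhydrase of the cell surface that handles acid outside the cell (chromosome 4, 43506966 to 43513729, plus strand), was at 39.8 and 78.2 CPM, a log2 ratio of -0.97 (-1.03 to -0.92). Bnip3, a protein of the outer mitochondrial membrane that marks mitochondria for removal (chromosome 7, 138890836 to 138909519, minus strand), was at 22.6 and 75.6 CPM, a log2 ratio of -1.74 (-1.81 to -1.67). Hilpda, a lipid droplet protein that restrains the release of stored fat (chromosome 6, 29272488 to 29275446, plus strand), was at 37.1 and 176.9 CPM. Its log2 ratio of -2.25 (-2.31 to -2.20) was the lowest of the 8.

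Ndrg1, a stress-induced gene of the N-myc downstream regulated family (chromosome 15, 66929318 to 66969640, minus strand), was at 47.7 CPM for the section labelled KPC-shZEB1 and 124.1 CPM in the section labelled KPC-shV (log2 ratio -1.38, interval -1.43 to -1.33). Ankrd37, an ankyrin repeat protein known as a HIF target (chromosome 8, 45996902 to 46005707, minus strand), was at 26.4 and 46.2 CPM, a log2 ratio of -0.81 (-0.88 to -0.74). Ordered by ratio, the genes ran Hilpda, Vegfa, Bnip3, Adm, Ndrg1, Car9, Egln3 and Ankrd37. The intervals of neighbours overlapped for Bnip3 and Adm and for Car9 and Egln3, and those of the other neighbours did not. The order moved with the processing. With spots averaged by their CPM, Car9 (-0.99) lay above Ankrd37 (-1.03), and over all spots Egln3 (-1.58) lay under Ndrg1 (-1.57).

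**Figure D1:**
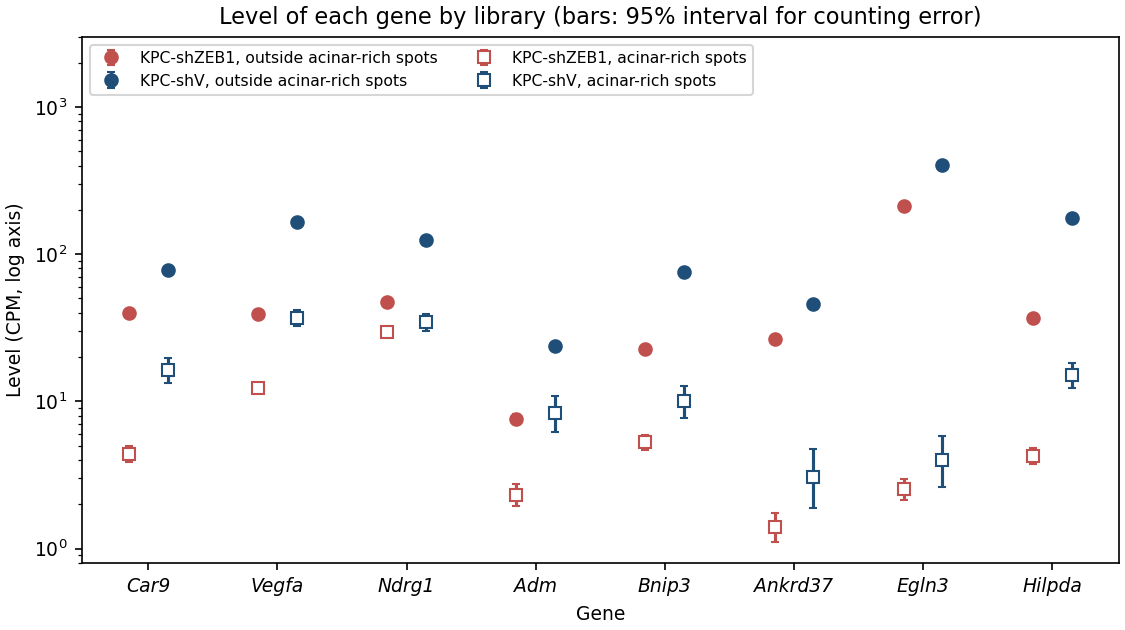
Level of each gene in CPM on a log axis, outside acinar-rich spots (filled circles) and in them (open squares), with 95% intervals for counting error and 1 library per colour. Each filled circle of the section labelled KPC-shZEB1 lies under that of KPC-shV, and every open square lies under the filled circle of its own library.

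Acinar-rich spots held fewer of these transcripts per UMI. In acinar-rich spots the 8 genes summed to 61.9 CPM for the section labelled KPC-shZEB1 and 128.1 CPM in the section labelled KPC-shV, and each gene was lower there than outside in both libraries. The gap was widest for Egln3, at 2.53 CPM against 213.0 CPM outside in the section labelled KPC-shZEB1 (log2 ratio of acinar-rich over outside -6.40) and 3.998 against 406.6 CPM in the section labelled KPC-shV (-6.67). It was narrowest for Ndrg1 in the section labelled KPC-shZEB1, at 29.4 against 47.7 CPM (-0.70), and for Adm in the section labelled KPC-shV, at 8.30 against 23.7 CPM (-1.51). Acinar UMIs fill part of the total of acinar-rich spots, which lowers the CPM of other genes there, and no share over all genes is given. Zeb1, not one of the 8, was lower there too (-2.23 in the section labelled KPC-shZEB1 and -1.24 in the other). Between the acinar-rich spots of the libraries, the log2 ratio ran from -1.89 for Car9 to -0.23 for Ndrg1, and the interval of Egln3 reached 0 (-1.27 to 0.00). Over all spots, where acinar UMIs enter the total, the ratios were lower, from -2.82 to -1.42. The median over 15358 genes was then -0.48, and 84.3% of them were below 0. The part of acinar UMIs in this shift of the 8 genes was not tested. All 8 genes were then at or under -1, as were 9.21% of all genes tested.

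Stretches upstream of the start sites were read to show the letters that HIF binds. RefSeq start sites on GRCm38.p6 matched 7 of the 8 genes, with 9 start sites in all, and Ndrg1 was not matched. In the 250 bases upstream, ACGTG or GCGTG occurred on either strand, overlaps allowed, at 7 of the 9 start sites and for 7 of the 7 genes, beside 38.6% of 32851 such stretches in the genome. Of those 32851, 16.6% held ACGTG, 28.2% GCGTG and 16.7% at least 2 matches. Vegfa held its 2 matches only at an internal start site, Hilpda its 3 only at the second of its start sites, and Car9 its 1 match at -18, counted from the start site. The stretches of Bnip3, Ankrd37 and Egln3, which form the most closely correlated pair of each library, and of Adm, the gene least correlated with the others, are shown 5′ to 3′ in the direction of the gene, ending at the base before the start site, with every match in capitals. On the other strand the cores read CACGT and CACGC.
Bnip3, chr7:138909507-138909756, minus strand: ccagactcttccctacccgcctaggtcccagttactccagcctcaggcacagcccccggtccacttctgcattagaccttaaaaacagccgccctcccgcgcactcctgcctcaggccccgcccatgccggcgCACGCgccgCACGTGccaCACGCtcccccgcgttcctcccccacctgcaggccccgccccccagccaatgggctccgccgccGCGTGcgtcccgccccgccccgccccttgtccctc
Ankrd37, chr8:45999851-46000100, minus strand: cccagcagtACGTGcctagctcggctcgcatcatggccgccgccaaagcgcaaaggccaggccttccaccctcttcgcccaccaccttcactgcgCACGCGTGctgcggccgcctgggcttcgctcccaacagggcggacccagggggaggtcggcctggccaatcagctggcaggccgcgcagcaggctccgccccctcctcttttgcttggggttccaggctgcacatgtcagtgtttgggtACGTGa
Egln3, chr12:54203875-54204124, minus strand: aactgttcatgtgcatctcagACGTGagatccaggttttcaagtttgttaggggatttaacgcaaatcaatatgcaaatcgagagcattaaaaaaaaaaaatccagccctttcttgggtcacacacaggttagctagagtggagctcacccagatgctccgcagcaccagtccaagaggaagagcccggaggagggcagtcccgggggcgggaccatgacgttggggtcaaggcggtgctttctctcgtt
Adm, chr7:110627407-110627656, plus strand: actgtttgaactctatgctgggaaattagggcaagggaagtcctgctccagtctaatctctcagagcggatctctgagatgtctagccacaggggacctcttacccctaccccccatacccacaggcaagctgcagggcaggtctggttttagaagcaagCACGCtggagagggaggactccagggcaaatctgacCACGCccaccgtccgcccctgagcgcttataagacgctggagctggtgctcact
Counted from the start site, Bnip3 held 5 matches from -117 to -35, at -108 and -107 overlapping in a palindrome, and Ankrd37 held 4 from -241 to -6. Egln3 held 1 match at -229 and Adm 2, at -90 and -54. In the GENCODE annotation, some of these stretches lie within the gene itself. Both Vegfa matches and 1 of the 4 Ankrd37 matches fell in their own coding sequence, as the start sites used lie 7206 and 5857 bases inside the annotated 5′ ends. The Car9 match and 2 of the 3 Hilpda matches fell in an exon of the same gene outside its coding sequence, and the matches of Adm, Bnip3 and Egln3 fell in none. The matches are letters in these stretches and no measure of binding.

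The genes agreed across spots in both sections, more closely in the section labelled KPC-shV. Agreement was taken as Spearman's rank correlation (rho) of the CPM of each spot, a description with no p, since the spots of a library share a section and their depth. All 28 pairs were above 0 in both. Within KPC-shZEB1 the pairs ran from 0.0993 for Ndrg1 and Hilpda to 0.525 for Ankrd37 and Egln3, with a median of 0.296 over 1461 spots, and 12 of 28 reached 0.3. Within KPC-shV they ran from 0.473 for Adm and Hilpda to 0.740 for Bnip3 and Egln3, with a median of 0.605 over 3301 spots, and 28 of 28 reached 0.3. Each of the 28 pairs was higher in the section labelled KPC-shV. No share over pairs of all genes is given for either library, so how usual such counts of pairs are was not tested. The part of tissue makeup in the difference between the libraries was not tested either.

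Counting noise pulls rho toward 0 where a gene has few UMIs, and the 8 genes had fewer per spot in the section labelled KPC-shZEB1. The UMIs of each gene in the section labelled KPC-shV were thinned at random to its CPM in the other library. The median was then 0.501, with pairs from 0.358 to 0.612, and 28 of 28 pairs were above the same pair of the section labelled KPC-shZEB1. This matched the mean level of each gene, and neither its spread over spots nor the depth of the spots. The part of counting noise in the difference between the libraries was therefore not tested. When each spot of both libraries was thinned to 5000 UMIs, the medians were 0.126 and 0.352. The size of the correlations moved with depth, and the median was higher in the section labelled KPC-shV under each of these settings.

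**Figure D2:**
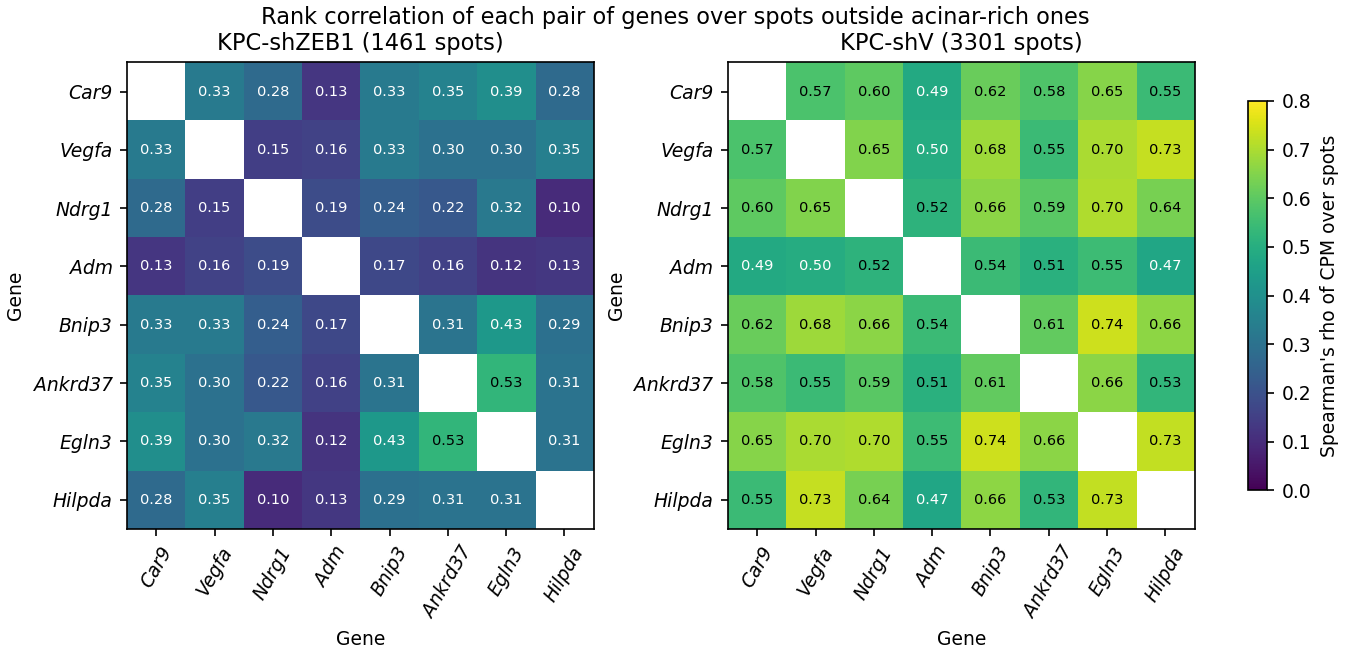
Spearman's rho of CPM over spots for each pair of genes, with the genes on both axes and 1 panel per library. In the panel of KPC-shZEB1 values run from 0.0993 to 0.525 and the 7 pairs with Adm from 0.120 to 0.186, and in the panel of KPC-shV they run from 0.473 to 0.740.

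Each gene was then set against the other 7, so that no gene helped to rank the spots for itself. The other 7 were joined in a score, the mean of the CPM of each gene over its mean CPM in both libraries. Within the section labelled KPC-shV, rho with this score was 0.807 for Egln3, 0.758 for Bnip3, 0.741 for Hilpda, 0.733 for Vegfa, 0.702 for Ndrg1, 0.644 for Car9, 0.626 for Ankrd37 and 0.561 for Adm. Within the section labelled KPC-shZEB1 it was 0.472 for Egln3, 0.415 for Car9, 0.413 for Ankrd37, 0.404 for Bnip3, 0.353 for Vegfa, 0.308 for Hilpda, 0.305 for Ndrg1 and 0.156 for Adm. Egln3 was first and Adm last in both, while Hilpda was the third of the 8 in the section labelled KPC-shV and the sixth in the other.

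A rho of at least 0.3 in both libraries was reached by 7 of the 8 genes, all but Adm. Adm had the fewest UMIs of the 8 genes and was met in 24.0% of the spots labelled KPC-shZEB1. The part of counting noise in its lower rho was not tested. Among the 4205 genes at 50 CPM or more in both libraries 1.55% reached it, and Egln3 was the 1 gene of the 8 that passed this minimum. At a minimum of 5 CPM, chosen after seeing the data, all 8 genes passed and 0.742% of 10783 genes reached 0.3. Of the 10775 other genes at that minimum, 6 stood above Egln3 for the section labelled KPC-shZEB1 and 2 in the section labelled KPC-shV, and 992 and 47 stood above Adm. These other genes were set against all 8 genes and not 7.

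Spots were sorted by the other 7 genes into 4 bins of equal size, and the highest bin held several times more of each gene than the lowest. In the section labelled KPC-shV, Egln3 was at 70.3, 146.8, 506.4 and 1260 CPM from the lowest to the highest bin, and Hilpda at 51.0, 64.3, 149.4 and 605.4 CPM. In the section labelled KPC-shZEB1, Egln3 was at 101.4, 126.4, 156.7 and 506.4 CPM and Hilpda at 23.5, 24.3, 27.4 and 77.6 CPM. The log2 ratio of the highest over the lowest bin ran from 3.42 for Vegfa to 4.84 for Adm in the section labelled KPC-shV and from 1.72 for Hilpda to 2.83 for Car9 in the section labelled KPC-shZEB1. In the latter, the first 3 bins lay close together and most of the step fell in the fourth for Vegfa, at 24.3, 25.1, 28.2 and 83.1 CPM, and for Ndrg1, at 29.2, 27.0, 32.6 and 107.3 CPM, while Car9 was at 14.8, 19.0, 26.1 and 104.9 CPM.

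The share of each gene that lay in few spots was then measured. The 146 spots (10%) there with the highest score of the other 7 genes held a median of 36.5% of the UMIs of a gene and between 8.39% and 8.84% of all UMIs, from 32.5% for Vegfa to 47.6% for Adm. Within the section labelled KPC-shV, the 330 spots chosen in the same way held a median of 22.8% and between 4.79% and 5.25% of all UMIs, from 16.7% for Car9 to 30.3% for Adm. The second median moved with depth and was 28.01% without spots under 20000 UMIs, 35.8% when spots were thinned to 5000 UMIs and 37.7% at 20000 UMIs. Under the same settings the median of the section labelled KPC-shZEB1 was 35.8%, 36.0% and 39.8%.

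Single genes were found in fewer spots of the section labelled KPC-shZEB1. With each spot thinned to 5000 UMIs, which left out 4 and 174 spots, Egln3 had a UMI in 47.6% of 1457 spots (45.0% to 50.2%) and 57.9% of 3127 spots (56.1% to 59.6%). Vegfa had one in 16.1% and 47.1%, Hilpda in 14.9% and 45.7%, and Adm in 3.77% and 12.4%. Unthinned, the shares were 91.1% and 85.7% for Egln3, 73.0% and 89.0% for Vegfa, 71.3% and 88.2% for Hilpda and 24.0% and 42.5% for Adm. For Egln3 the order turned with depth, and it did not for the other 3.

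The span over spots was wide for every gene. Egln3 reached from 0 through a median of 124.3 to 2854 CPM in the spots labelled KPC-shZEB1 and from 0 through 205.3 to 4326 CPM in those labelled KPC-shV. Ndrg1 had a median of 29.3 and a highest value of 2562 CPM in the former and 60.6 and 1937 CPM in the latter, so that the highest spot of Ndrg1 lay in the library with the lower level. Adm was at 0 in the median spot of both libraries, with a highest value of 961.1 and 1135 CPM. The shallowest spots held 826 and 110 UMIs, where a single UMI gives a high CPM, so the highest values can reflect depth.

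At 5000 UMIs, 4 or more of the 8 genes were met in 6.59% (5.37% to 7.99%) of the spots labelled KPC-shZEB1 and 34.4% (32.8% to 36.1%) of those labelled KPC-shV. All 8 were met in 3 and 64 spots, and 0 of the 8 in 27.2% and 15.03%. Unthinned, the shares with 4 or more genes were 81.7% and 85.8%. In acinar-rich spots, where the median depth was 66374 and 24224 UMIs against 58332 and 54861 outside, 4 or more genes were met in 1 of 759 and 0 of 240 thinned spots. The interval of 0 of 240 reached 1.53%, with spots taken as independent draws, which spots of a section are not.

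The score of all 8 genes was lower over most spots of the section labelled KPC-shZEB1. Its median over spots was 0.262 for the section labelled KPC-shZEB1 and 0.606 in the section labelled KPC-shV. The upper quartile of KPC-shV was passed by 46 of 1461 spots (3.15%, 2.31% to 4.18%) of the section labelled KPC-shZEB1, and the score passed by 10% of the KPC-shV spots was passed by 9 spots (0.616%, 0.282% to 1.17%). The highest scores were close, at 12.04 and 12.49, though such single values can be set by shallow spots. Thinned to 20000 UMIs, the shares over the upper quartile and over the latter score were 4.69% and 0.923%.

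**Figure D3:**
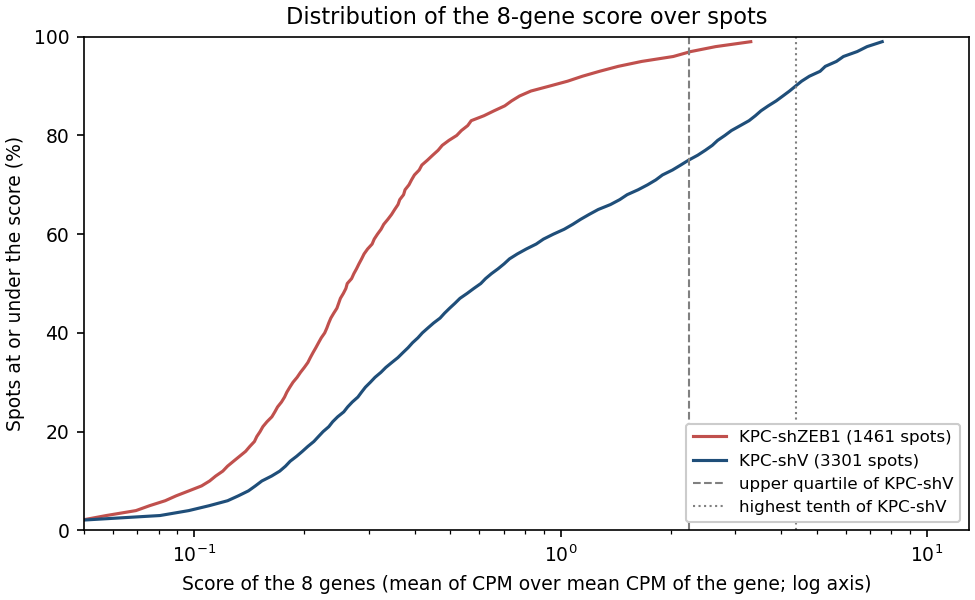
Percent of spots at or under a score of the 8 genes (log axis, drawn from percentile 1 to 99, the mean over genes of CPM divided by the mean CPM of the gene) for the 1461 and 3301 spots outside acinar-rich ones, with lines at the upper quartile and at the score that 10% of the KPC-shV spots pass. The curve of KPC-shZEB1 lies to the left, and 3.15% of its spots pass the dashed line.

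Spots within the same range of the other 7 genes were then set side by side, a comparison chosen after seeing the data. For each gene, the spots of both libraries were split at the median and the upper quartile that the score of the other 7 had in KPC-shV. Vegfa and Hilpda were lower in the section labelled KPC-shZEB1 in each stratum. Vegfa was at 26.9 against 59.3 CPM in the low stratum, 73.1 against 163.7 CPM in the middle one and 231.8 against 525.1 CPM in the high one, with log2 ratios of -1.14, -1.16 and -1.18. Hilpda was at 25.7 against 57.8, 60.2 against 149.4 and 242.8 against 605.4 CPM, with log2 ratios of -1.17, -1.31 and -1.32.

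Egln3 and Ankrd37 were not lower within the same range of the others. Egln3 had log2 ratios of 0.33, 0.08 and 0.15 from the low to the high stratum and Ankrd37 of 0.32, 0.22 and 0.26, and every interval of theirs lay above 0. Car9 was at -0.07, 0.40 and 0.16, with the interval of the first spanning 0 (-0.16 to 0.03). Ndrg1 lay between -0.33 and -0.21 and Bnip3 between -0.69 and -0.37. Adm was at -0.02, -0.83 and -0.01, and its outer strata spanned 0. The high stratum held 38 to 60 spots of the section labelled KPC-shZEB1, depending on the gene, against 825 of the other. Since the other 7 set the strata, the values are relative to them. The strata are wide and the high one has no upper limit, so the level of the other 7 can still differ between the libraries within a stratum. For the score of all 8 genes, percentile 99 was 3.30 in KPC-shZEB1 and 7.55 in KPC-shV. The part of such differences in the ratios was not tested. Without spots under 20000 UMIs, Vegfa was between -1.16 and -1.14, Hilpda between -1.23 and -1.18, Egln3 between 0.10 and 0.38 and Ankrd37 between 0.28 and 0.35.

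**Figure D4:**
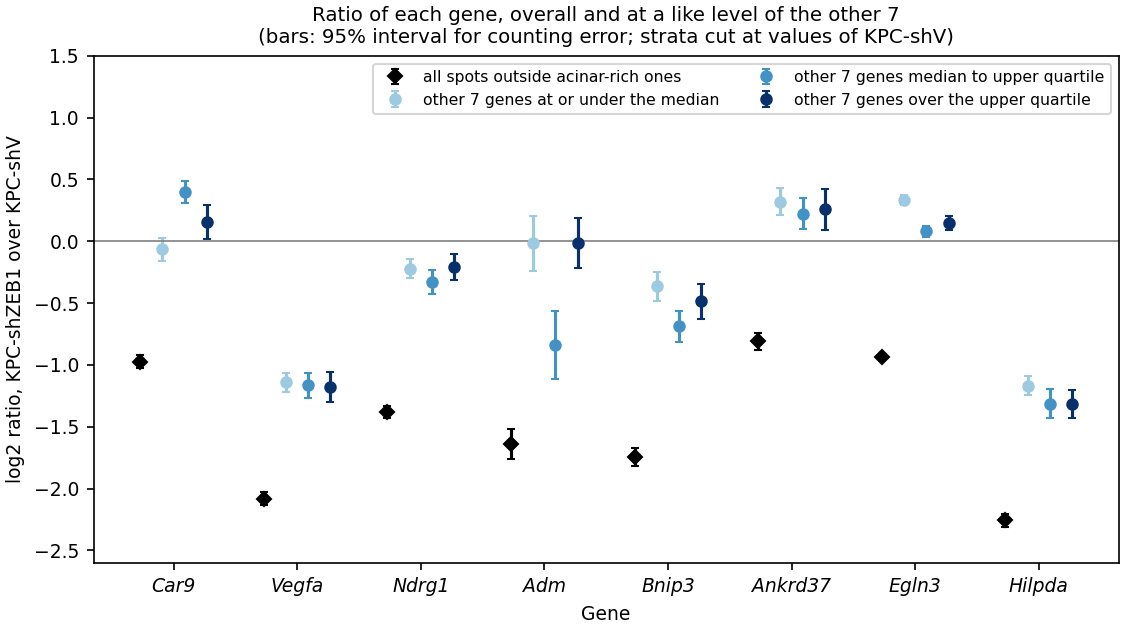
Level of KPC-shZEB1 divided by that of KPC-shV (log2) for each gene, over all spots outside acinar-rich ones (black) and within 3 strata of the score of the other 7 genes (blue shades), with 95% intervals for counting error. All black points lie below 0, and within the strata Vegfa and Hilpda lie between -1.32 and -1.14 while Egln3 and Ankrd37 lie above 0.

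Of the 10 genes most like the 8-gene score over spots, 6 were on the lists of other HIF targets described next. Each of those lists held 8 of the 4204 other genes at 50 CPM or more. The lists were chosen with earlier results of these data known. Ordered by the library with the weaker rho, the 10 highest of the 4204 other genes at 50 CPM or more were Fam162a (0.542 labelled KPC-shZEB1 and 0.785 labelled KPC-shV), Aldoa (0.537 and 0.822), Bsg, Pgk1, Mif, Gpi1, Pfkl, Pdk1, Pkm and Ero1l (0.433 and 0.757). The symbol Aldoa occurs for more than 1 feature, and the values are of ENSMUSG00000030695. Aldoa, Pgk1, Gpi1, Pfkl and Pkm are enzymes of glycolysis, Bsg is the chaperone of the lactate exporters, and Pdk1 holds pyruvate back from mitochondria. The 5 most opposite were Eng (-0.444 and -0.621), an endothelial coreceptor, and Cd52, Pld4, C1qa and C1qb, genes of immune cells. These 10 like genes had log2 ratios between the libraries from -0.78 for Ero1l to -0.32 for Bsg, all closer to 0 than the -0.81 of Ankrd37.

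The sensors and subunits of the pathway differed little between the libraries as a sum, of which Hif1a was the largest member, and more as single genes. The 10 genes of HIF sensing and transcription summed to 705.9 CPM for the section labelled KPC-shZEB1 and 761.7 CPM in the section labelled KPC-shV, a log2 ratio of -0.11. Of the 10 genes, 6 were below 0, close to the 51.7% of all genes tested. The lowest were Egln1, the main oxygen-sensing hydroxylase, at 36.2 against 86.6 CPM (-1.26), Cited2, an inhibitor of HIF coactivation, at 39.2 against 73.2 CPM (-0.90) and Hif3a (-0.86). The highest were Arnt2, at 1.68 against 0.966 CPM (0.80), Vhl (0.18) and Hif1a, the alpha subunit, at 337.7 against 301.2 CPM (0.17). Over spots, rho of the summed list with the score was 0.0287 and 0.403. The sum does not stand for its genes, as the median rho of its 4 genes at 50 CPM or more was 0.112 and -0.0335. Hif1a RNA itself ran weakly against the score, with -0.252 and -0.144.

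The sums of other known HIF targets were lower too, by less. Of 15 measured targets in glucose use and mitochondria, 14 were below 0 and 3 at or under -1, beside 51.7% and 2.02% of all genes tested. The 3 were Slc2a1, the glucose transporter Glut1, at 77.8 against 287.0 CPM (-1.88), Slc16a3, a lactate exporter (-1.39), and Hk2, the hexokinase (-1.01). The highest of this list was Gapdh (0.55), read here at only 3.49 and 2.39 CPM, followed by Pfkfb3 (-0.13) and Pgk1 (-0.39). The list summed to 2381 and 3865 CPM, a log2 ratio of -0.70, and its rho with the score was 0.603 and 0.872. Of its 8 genes at 50 CPM or more, 7 had a rho of at least 0.3 in both libraries, beside 1.55% of all 4205 such genes. Hk2 missed it in the section labelled KPC-shZEB1 (0.288).

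Of 19 measured targets in matrix, stress and signalling, 14 were below 0, beside 51.7% of all genes tested. Among the lowest were Ddit4, a stress-induced inhibitor of mTOR signalling, at 129.9 against 248.2 CPM (-0.93), and Kdm3a, a histone demethylase, at 27.9 against 53.1 CPM (-0.93). The highest were Tmem45a (0.68), Rora (0.57) and Stc2 (0.49). The list summed to 1591 and 2335 CPM, a log2 ratio of -0.55, with a rho of 0.458 and 0.822 with the score. As sums, both lists of targets were thus lower by less than the 8 genes, whose sum was at -1.34. Large members weigh most in such sums, with Egln3 at 213.0 and 406.6 CPM in that of the 8 genes and Aldoa at 1008 and 1593 CPM in the glucose list. The median log2 ratio of a gene was -0.52 in the glucose list, -0.65 in the matrix list and -1.51 over the 8 genes.

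A list of receptor genes differed less between the libraries, as a sum, than Vegfa and Adm did. The list is broad, with receptors of the Vegf family and Calcrl with its Ramp partners, and not every member is a receptor of Vegfa or Adm. Its 9 genes summed to 390.0 and 416.7 CPM, a log2 ratio of -0.10. Nrp2 held 143.8 and 137.6 CPM of these (log2 ratio 0.06) and Ramp1 83.4 and 122.4 CPM. The median log2 ratio of the 9 genes was 0.34. Of the 9 genes, 3 were below 0, beside 51.7% of all genes tested. These were Flt1 at 33.7 against 65.4 CPM (-0.96), Ramp1 (-0.55) and Kdr (-0.23). Calcrl, the receptor that adrenomedullin uses together with Ramp2 or Ramp3, was highest at 30.8 against 10.6 CPM (1.54), followed by Ramp3 (0.59) and Flt4 (0.53). Over spots the list ran weakly against the score, with a rho of -0.186 and -0.198.

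Cell type markers differed along the score within each section. The spots of each library were sorted by the 8-gene score into 4 bins of equal size. The tumor epithelium list was at 4673, 5344, 5852 and 7460 CPM from the lowest to the highest bin for the section labelled KPC-shZEB1 and at 5132, 5999, 7401 and 8763 CPM in the section labelled KPC-shV. Fibroblast genes took the opposite course, from 10927 to 4546 CPM and from 11690 to 1578 CPM. Endothelial genes were at 151.4 in the lowest and 69.9 CPM in the highest bin of the former, and at 241.3 and 54.8 CPM in the latter. Macrophage genes went from 3235 to 1629 CPM and from 2927 to 592.0 CPM, and T cell genes from 230.1 to 89.4 CPM and from 62.8 to 13.6 CPM. B cell genes went from 58.1 to 25.2 CPM and from 15.7 to 7.96 CPM. In both sections, then, spots with a high score were rich in epithelial genes and poor in stromal, vessel, macrophage and lymphocyte genes. Adm by itself hardly shared this in the section labelled KPC-shZEB1, except for T cell genes, with a rho of -0.120. Its rho there was -0.0149 with the tumor epithelium list, 0.0387 with fibroblast, 0.0181 with endothelial, -0.0110 with macrophage and 0.0873 with B cell genes. The other 7 genes had a rho above 0 with the epithelium list there and below 0 with the other lists named here. Acinar genes, within the limit of 20%, went from 12434 to 3329 CPM and from 4466 to 210.8 CPM as sums. The median spot did not share this, with 0.146%, 0.109%, 0.109% and 0.116% acinar UMIs by bin in the former and 0.0118%, 0.0101%, 0.00825% and 0.0108% in the latter, and rho of the acinar list with the score was -0.0693 and -0.0643. Between the libraries, the log2 ratio was 2.25 for the T cell list, 1.80 for B cells, 0.62 for macrophages and 0.32 for fibroblasts, all higher in the section labelled KPC-shZEB1, and -0.38 for endothelial and -0.19 for tumor epithelium genes. The part of these cell types in the levels of the 8 genes was not tested.

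The sum of the neutrophil list went with the score in the section labelled KPC-shV. S100a8 and S100a9 made up most of that sum there, at 87.3 and 162.2 of 342.9 CPM, and no rho of a single marker with the score is given. The 8 genes of this list (S100a8, S100a9, Csf3r, Cxcr2, Retnlg, Il1r2, Clec4e and Trem1) were at 167.6, 180.9, 295.5 and 999.9 CPM by bin there, with a rho of 0.587 for the sum. In the section labelled KPC-shZEB1 they were at 149.5, 159.4, 177.3 and 149.5 CPM, with a rho of -0.0805. Each of the 8 hypoxia genes had a rho with the neutrophil list between 0.351 for Ankrd37 and 0.601 for Egln3 in the former library, and between -0.153 for Car9 and 0.0888 for Hilpda in the latter. These values include shallow spots, and no share over all genes is given beside them. Between the libraries, 7 of the 8 neutrophil genes were below 0 and 3 at or under -1, beside 51.7% and 2.02% of all genes tested. The sum was at 159.2 and 342.9 CPM, and no marker was at 0. The part of neutrophils in the levels of the 8 genes was not tested.

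Depth moved with the score as well. The median UMIs of a spot by bin were 58238, 63291, 60090 and 51596 for the section labelled KPC-shZEB1 and 61266, 60991, 62462 and 30956 in the section labelled KPC-shV, where 35.3% of the spots of the highest bin were under 20000 UMIs. In the latter, all 8 genes were higher per UMI in such shallow spots, with log2 ratios of shallow over deeper spots from 0.50 for Ankrd37 to 1.56 for Hilpda. The share of all genes that were higher in shallow spots is not given, so how usual this is was not tested. The 53 shallow spots of the former were mixed, with Adm (2.46), Ndrg1 (1.39), Vegfa (1.03) and Hilpda (0.92) higher, Ankrd37 (-0.98) and Egln3 (-0.29) lower, and Bnip3 (0.18) and Car9 (-0.37) with intervals that spanned 0. Without shallow spots, the neutrophil list was at 167.7, 172.6, 261.9 and 609.2 CPM by bin in the section labelled KPC-shV, with a rho of 0.522, and the log2 ratio of the 8 genes between the libraries was -1.29. Proliferation genes went from 1104 to 661.1 CPM between the lowest and the highest bin there, and from 1010 to 937.4 CPM in the section labelled KPC-shZEB1.

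**Figure D5:**
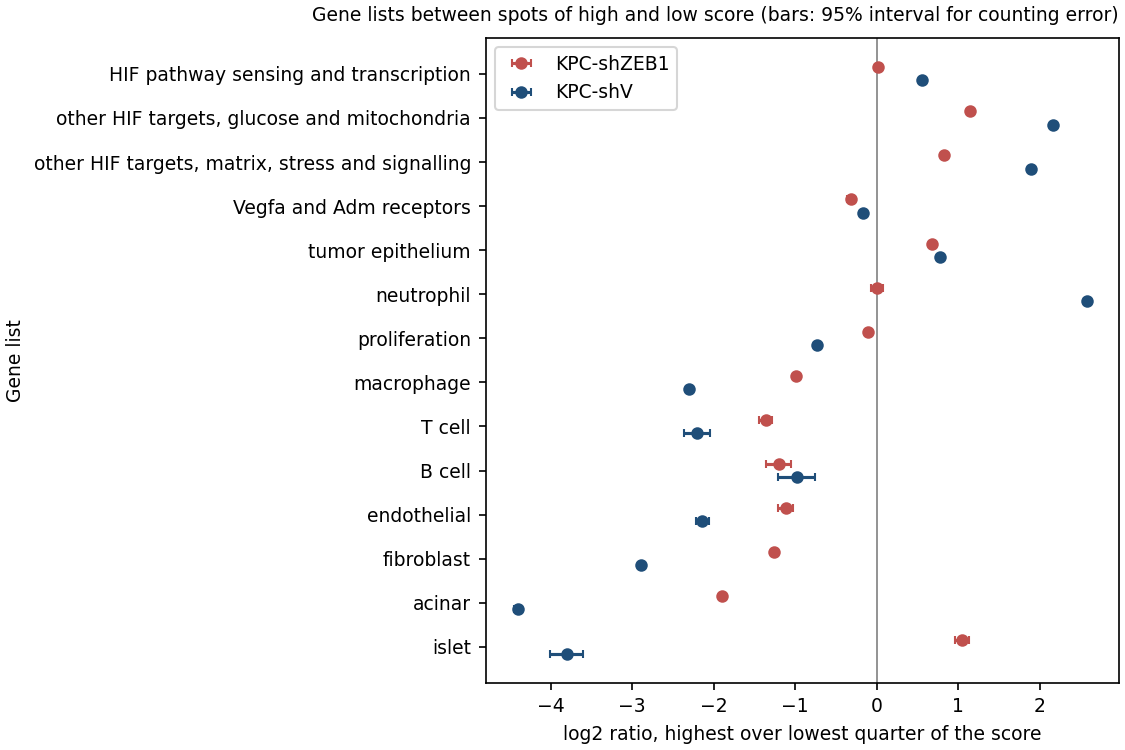
Log2 ratio of the summed level of each gene list between the highest and the lowest bin of spots by the 8-gene score, per library, with 95% intervals for counting error. The lists of other HIF targets and of tumor epithelium lie to the right of 0 in both libraries, macrophage, lymphocyte, endothelial and fibroblast lists to the left, and the neutrophil list at 0.00 in KPC-shZEB1 and 2.58 in KPC-shV.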

How the data were processed

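The authors made the matrices with Space Ranger 2.0.1 on mm10, per the labels, and deposited whole-number UMI counts, not normalized, for every gene in the tissue-covered spots of each Visium CytAssist section. Neither the images nor the positions of spots entered the analysis. From the deposited counts, CPM, log2 ratios, rank correlations and exact 95% intervals were computed with Python 3.11.15, numpy 2.4.6 and scipy 1.17.1, and figures with matplotlib 3.10.9. The steps were tested on simulated data. Spots with over 20% acinar UMIs were left out of the main values, with limits of 5% and 40%, all spots, other scalings, other depths and the removal of shallow or of the highest spots as alternatives. Thinning drew UMIs without replacement (seed 1). Genes named are the 8 members, Zeb1, the 3 highest and 3 lowest of a pathway list, the largest of the receptor list and the 10 most like and 5 most opposite genes. The members and lists were chosen with earlier results of these data known, and strata, the 5 CPM minimum, thinning to matched levels and list levels by bin without shallow spots were added after seeing the data.

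Of the listed genes, Eno1, Ldha, Higd1a, Mxi1, Krt18, Ccnb1, Cpb1, Prss1, Try5, Pnliprp1 and Amy2b were not analysed here. Ero1a is named Ero1l in the files. Positions of genes are those of GENCODE M21 (GRCm38), and upstream sequences from RefSeq (GRCm38.p6). No cell type makeup was estimated. A gene of the matrix, stress and signalling list and the alleles of the KPC mice are not reported here.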

Additional observations from a re-analysis of the deposited data

Results flagged for a closer look

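The islet hormone list went opposite ways along the 8-gene score in the sections. With spots in 4 bins by score, its log2 ratio of the highest over the lowest bin was 1.04 for the section labelled KPC-shZEB1 and -3.80 for KPC-shV, and the difference was not tested. In each section, few spots held most of these UMIs: the 1% of spots with the most islet UMIs (15 and 33 spots) held 84.2% and 84.5% of them.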

How the results depend on the processing

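Each of the 8 genes was lower in the section labelled KPC-shZEB1 under all 7 alternatives for levels. The summed log2 ratio of -1.34 became -1.88 over all spots, -1.32 and -1.37 with acinar-rich spots set at over 5% and 40%, -1.66 with spots averaged by their CPM, -1.56 without the 5% of spots with the highest level and -1.29 without spots under 20000 UMIs. The median over the genes became -1.82 over all spots, -1.74 as the mean of spot CPM and -1.85 without the highest 5%. Scaling by the median of ratios moved neither beyond its counting error. The median pairwise rho fell to 0.126 (KPC-shZEB1) and 0.352 (KPC-shV) at 5000 UMIs, and to 0.501 for KPC-shV at the levels of the other library. The share of a gene in the 10% of spots highest in the other 7 was 42.1% for KPC-shZEB1 over all spots, and for KPC-shV 35.8% at 5000 UMIs, 37.7% at 20000 UMIs and 28.01% without shallow spots.

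The share of spots with 4 or more genes depended most on depth. For KPC-shZEB1 it was 81.7% unthinned, 1.85% at 2000 UMIs, 39.1% at 20000 UMIs, 4.60% over all spots and 1.17% with at least 2 UMIs of each gene. For KPC-shV these were 85.8%, 18.9%, 68.2%, 31.6% and 16.2%. The section labelled KPC-shV was higher in each. No paired analysis was possible because each group has 1 library.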
